A study of Mus musculus with 22 samples.

Results

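Somatostatin (Sst) and 4 of its receptors (Sstr1, Sstr2, Sstr3 and Sstr4) were examined in RNA sequencing of mouse lumbar spinal cord. The 5 genes were taken by gene symbol from the 17306 genes of the deposited expression table, and all 5 were among the 16765 genes tested. Sstr5 was not analysed here. In mice treated late with the drug SAFit2, Sst was at 0.613 times the Vehicle level and was the 1 gene of the 5 called at an adjusted p under 0.05, as were 12.1% of all genes tested. That call was lost after a correction for GC content and length, when no gene of 16213 was called, and in 8 of 22 fits without 1 mouse. Calls over all genes fell in those 8 fits too, from 2021 to between 1 and 1375. For the effect averaged over early and late mice, Sst and Sstr1 passed an unadjusted threshold that 13.2% of all genes passed.

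All 22 mice were wildtype C57BL6J, aged 12 to 14 weeks at collection, and all had received 1 mg of sodium iodoacetate (MIA) into the knee joint, a chemical model of osteoarthritis pain, so no uninjured group enters any comparison. SAFit2, an inhibitor of the stress response protein FKBP51, was given at 100 mg/kg in a slow-release vesicular phospholipid gel (VPG), and Vehicle mice received the gel alone. Early SAFit2 (n = 5) and Early Vehicle (n = 6) mice were injected on days -3 and 4 relative to MIA (the treatment protocol gives the first of these without the minus sign), and Late SAFit2 (n = 5) and Late Vehicle (n = 6) mice on days 20 and 27. Every cord was collected on day 30, so the last injection lay further back in early than in late mice, and the batch label of the samples separates early from late mice without saying what the batch was. The study asked how SAFit2 given at either time alters the spinal cord.

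Somatostatin is an inhibitory neuropeptide cut from a longer precursor. Its receptors couple to inhibitory G proteins, through which they open potassium channels, close calcium channels and lower cyclic AMP. In the dorsal horn of the spinal cord, Sst marks a population of excitatory interneurons that pass on mechanical pain signals, while Sstr2 is known from inhibitory interneurons. Cyclic AMP raises Sst transcription through the factor CREB, which binds a short palindrome in the Sst promoter.

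The last 28 codons before the stop codon of Sst are shown because they encode the active peptides, with the 14 codons of somatostatin-14 in capitals. The same stretch of Cort, the gene of the related ligand cortistatin that binds the same receptors, is set beside it with its last 14 codons in capitals. Both were read from GENCODE M21 transcripts (GRCm38, minus strand, coding exon sequence, at chr16:23889732-23889815 for Sst and chr4:149125267-149125350 for Cort), 5′ to 3′.
Sst: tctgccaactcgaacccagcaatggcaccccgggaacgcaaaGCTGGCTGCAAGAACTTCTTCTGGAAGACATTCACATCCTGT
Cort: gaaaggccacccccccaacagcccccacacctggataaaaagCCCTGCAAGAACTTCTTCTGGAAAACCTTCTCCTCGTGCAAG
Over the last 12 codons of Sst and the aligned 12 codons of Cort, which end 3 bases before its stop codon, 30 of 36 bases were identical (83.3%). Cort itself was close to absent from these libraries, with 0 to 10 reads in a library and 0 reads in 7 of 22 mice, and was not tested.

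The CREB palindrome TGACGTCA (the same on both strands) was searched for in RefSeq promoter windows of GRCm38.p6, each from 250 bases before to 50 bases after a gene's start. It was in 588 of 32851 windows (1.79%). Windows existed for 4 of the 5 genes, Sstr1 being the one without. Sst and Sstr2 held the motif, starting 48 and 58 bases before the start site respectively. The letters were not in the windows of Sstr3 and Sstr4. The 30 bases around each match are shown for these 2 genes, with the motif in capitals.
Sst: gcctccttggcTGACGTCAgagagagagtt
Sstr2: ccaagctgccgTGACGTCAcgggcgggggc
The Sst stretch is at chr16:23890874-23890903 on the minus strand, inside the longer first exon that GENCODE M21 gives the gene, and the Sstr2 stretch at chr11:113619258-113619287 on the plus strand, before the first exon. A match is a description of the sequence and not evidence of a bound site.

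The genes lie apart in the genome (GENCODE M21, GRCm38). Sst is at chr16:23889573-23890958 (minus strand), Sstr1 at chr12:58211772-58214444 (plus), Sstr2 at chr11:113619342-113626028 (plus), Sstr3 at chr15:78537008-78544685 (minus) and Sstr4 at chr2:148395344-148396767 (plus). The span of Sstr2 overlaps that of Slc39a11, which is read from the opposite strand. The other 4 overlapped no annotated gene. The longest transcripts of all 5 were rich in G and C, from 53.1% in Sstr2 and 56.0% in Sst to 60.6% in Sstr4, against a median of 49.7% over the 16213 genes tested that have a value.

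Libraries held 11352989 to 24433349 reads on genes. They also differed in how their values leaned on the GC content of genes, a slope that ran from -0.48 to -0.05 log2 units per 10% GC in Late SAFit2 mice and from -0.32 to 0.49 in Late Vehicle mice, and the share of reads on Bc1 and mitochondrial genes was 16.03% to 31.45% and 8.15% to 21.43% in the same groups. Since the genes described here are all GC-rich, each late value is given again after a correction for GC content and length. That correction cannot spare a response to SAFit2 that itself tracks GC content. Dorsal horn markers were well detected, with all 12 excitatory and all 12 inhibitory markers in the table. Of 10 markers of sensory neurons of the dorsal root ganglion, 6 were not in the table, and the summed level of the other 4 was 2.5 to 8.32 CPM. In such bulk tissue, fewer Sst cells and less Sst RNA per cell cannot be told apart.

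Sst was by far the most abundant of the 5 genes. On the scale of CPM (reads scaled to a common library size) per kilobase of exon, on which levels of different genes can be compared, its mean level over the 22 mice was 169 ± 50.1 (SD), followed by Sstr1 at 9.59 ± 1.58, Sstr2 at 3.44 ± 0.913, Sstr3 at 2.02 ± 0.496 and Sstr4 at 0.396 ± 0.331. Sst exceeded Sstr1 in every mouse, by a median of 16.9 times. Sstr1 exceeded Sstr2 in all 22 mice as well (median ratio 2.68), and the ranges of these genes did not overlap. Sstr2 and Sstr3 were the neighbours whose ranges overlapped, with Sstr2 the higher in 20 of 22 mice (median ratio 1.85, from 0.797 to 2.66). Sstr4 was below Sstr3 in every mouse. Among all genes tested, the mean log2 CPM of Sst was at percentile 90.3 and that of Sstr4 at percentile 7.01.

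The reads behind these levels set how far each gene can be read. Sst had 879 to 3738 reads in a library, Sstr1 146 to 605, Sstr2 42 to 235, Sstr3 48 to 257 and Sstr4 0 to 32. Counting alone accounted for 0.745% of the variance of Sst between mice of a group, and for 13.2%, 11.8% and 10.7% in Sstr1, Sstr2 and Sstr3. For Sstr4, 4 mice had 0 reads, where 3 reads is the limit that a count of 0 allows, and 13 of 22 had fewer than 10. Over the 18 mice with reads, counting accounted for 35.1% of the Sstr4 variance. These shares cover counting error only. Between mice of a group the SD of log2 CPM was 0.40 for Sst, 0.22 for Sstr1, 0.40 for Sstr2, 0.38 for Sstr3 and, in mice with reads, 0.69 for Sstr4.

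**Figure D1:**
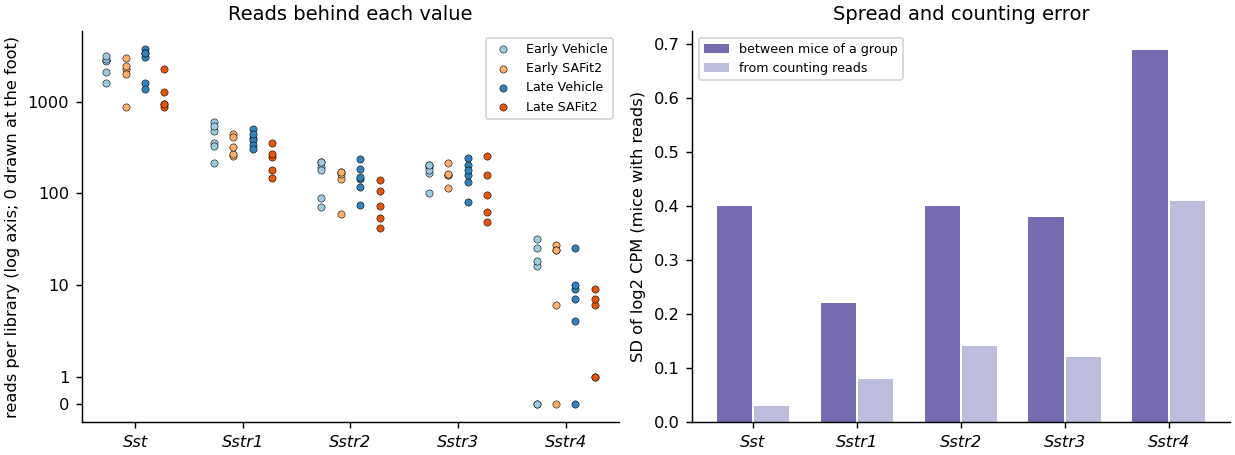
Left, reads per library on a log axis for each gene, 1 point a mouse, coloured by group, with 0 drawn at the foot. Right, SD of log2 CPM between mice of a group beside the SD that counting those reads gives, over mice with reads. Sst rests on 879 reads or more in every mouse, while Sstr4 has 0 to 32 and the largest part of its spread from counting.

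The ligand was lower in late-treated mice. Sst stood at 6.98, 6.11, 6.11, 6.46 and 6.72 log2 CPM in the 5 Late SAFit2 mice and between 6.53 and 7.60 (median 7.30) in the 6 Late Vehicle mice. All 5 SAFit2 mice lay below the Vehicle mean, but the groups overlapped, because Late Vehicle mice 2 and 6 (6.53 and 6.78) fell within the SAFit2 range. Group means were 6.48 ± 0.38 (SD, n = 5) and 7.18 ± 0.44 (n = 6), a log2 fold change of -0.71 ± 0.21 (SE). By limma with Benjamini-Hochberg adjustment over all genes, the adjusted p was 0.0384, and the exact permutation test over the 462 splits of the mice gave p = 0.026 (two-sided).

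Sst was 1 of 2021 genes called in that comparison (12.1% of those tested, at an adjusted p under 0.05 and at least a 1.2-fold change), so 1 call among the 5 genes here is no result about the set. Its values moved with the GC slope of the libraries, whose part in the difference was not tested. Late Vehicle mice 2 and 6, those with the low Sst, were also the Late Vehicle mice with negative slopes (-0.16 and -0.32), as in the SAFit2 group. After GC and length correction the difference was -0.44 ± 0.17 with an adjusted p of 0.192, so that the call was lost, and no gene of 16213 was then called in this comparison (2610 at a nominal p under 0.05). The call was also lost in 8 of the 22 fits that left out 1 mouse, namely without Late Vehicle 1, 3, 4 or 5 or Late SAFit2 2, 3, 4 or 5. Over all 22 fits the log2 fold change was -0.84 to -0.62, with a p of 0.000379 to 0.0106 and an adjusted p of 0.00999 to 0.112 by limma. Calls over all genes fell in the same 8 fits, from 2021 to 1375 without Late SAFit2 3 and to 8 without Late SAFit2 4. In each of the others of the 8, 1 gene of 16765 was called. Without the 4 libraries in which Bc1 and mitochondrial genes took over 20% of reads, chosen after the data were seen, the log2 fold change of Sst was -0.86 (adjusted p = 0.0415).

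In early-treated mice no difference in Sst was detected. The Early SAFit2 mice stood at 5.86, 7.26, 6.82, 6.70 and 7.09 log2 CPM, and the Early Vehicle mice between 6.77 and 7.13 (median 6.94). The Vehicle group was the tightest of the 4 for this gene (SD 0.14), and Early SAFit2 mouse 1 alone was far below it. The log2 fold change was -0.22 ± 0.21 (adjusted p = 1 by limma, exact permutation p = 0.457). Without Early SAFit2 mouse 1 it was 0.01.

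**Figure D2:**
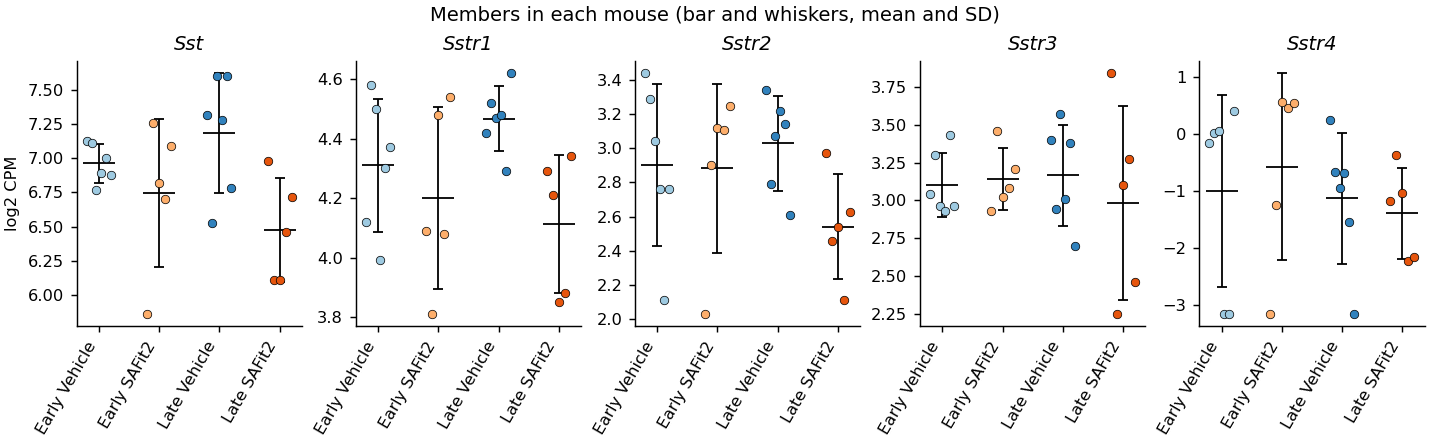
Deposited log2 CPM of each gene in every mouse by group, with 1 point a mouse and the mean and SD of the group as bar and whiskers. All 5 Late SAFit2 mice lie below the Late Vehicle mean for Sst, Sstr1 and Sstr2, the late groups overlap in every gene, and 4 mice sit at the floor of -3.15 for Sstr4.

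Over early and late mice together, the mean effect of SAFit2 on Sst was -0.46 ± 0.15 on the log2 scale, or 0.726 times Vehicle. It passed the nominal threshold by limma (p = 0.00455) that the study used for this effect, with an exact permutation p of 0.0158 over 213444 splits within timing, and did not pass adjustment (adjusted p = 0.325). The nominal call held in each of the 22 fits without 1 mouse (-0.53 to -0.35), and after GC and length correction (-0.30, adjusted p = 0.495). Sst and Sstr1 were the 2 of the 5 genes at a nominal p under 0.05 for this effect, beside 13.2% of all genes tested. The effect in early mice minus that in late mice was 0.49 ± 0.30 for Sst (adjusted p = 0.297 by limma, exact permutation p = 0.225), and was not shown to differ from 0. Without Early SAFit2 mouse 1 it was 0.71 (adjusted p = 0.0974).

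Sstr1, the most abundant receptor, had lower values in late-treated mice that did not pass adjustment. Its values were 4.29, 4.21, 3.85, 3.88 and 4.34 log2 CPM in Late SAFit2 mice and 4.29 to 4.62 (median 4.48) in Late Vehicle mice. The groups met at 4.29 to 4.34, so that the overlap was slight, and the Late Vehicle mice were close together (SD 0.11). The log2 fold change was -0.35 ± 0.14, with p = 0.0218 and adjusted p = 0.0893 by limma, and an exact permutation p of 0.00649. In late mice Sst and Sstr1 were thus the 2 of 5 genes at a nominal p under 0.05, beside 34.5% of all genes. In early mice the log2 fold change of Sstr1 was -0.11 ± 0.14 (adjusted p = 1), with values of 4.09, 3.81, 4.48, 4.08 and 4.54 under SAFit2 and 3.99 to 4.58 (median 4.34) under Vehicle.

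The mean effect on Sstr1 was -0.23 ± 0.10 (p = 0.031 by limma, exact permutation p = 0.0281, adjusted p = 0.352). The study named Sstr1 from these same samples among genes that early and late SAFit2 moved alike, so its nominal p is not independent evidence. It did so when describing genes shared by its overall effect (nominal p) and its late comparison (adjusted p under 0.05, 1.2-fold). Here Sstr1 did not reach that late threshold (adjusted p = 0.0893 by limma). The study's figure legend gives the symbol Sstr1 but describes it as somatostatin receptor 4. In 7 of the 22 fits without 1 mouse the nominal call was lost (without Early SAFit2 1, 2 or 4, Early Vehicle 2 or 3, or Late SAFit2 3 or 4), with p of 0.0131 to 0.0769 over all 22. After GC and length correction the late value turned to 0.15 ± 0.20 (adjusted p = 0.764), and the mean effect to -0.00 (adjusted p = 0.999). Between mice of a group, Sstr1 did not follow the GC slope as deposited (Pearson r = -0.21, adjusted p = 0.457, Spearman rho = -0.21, adjusted p = 0.476) and ran against it after the correction (r = -0.78, adjusted p = 0.0056, permutation within groups, n = 22).

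Sstr2, through which somatostatin silences many neurons, also had lower values in late-treated mice that did not pass adjustment. Late SAFit2 mice had 2.97, 2.46, 2.54, 2.11 and 2.63 log2 CPM, and Late Vehicle mice 2.61 to 3.34 (median 3.11). As for Sst, the lowest Vehicle mice were numbers 6 and 2 (2.61 and 2.79), and these overlapped with the SAFit2 group. The log2 fold change was -0.49 ± 0.24 (p = 0.0505, adjusted p = 0.146 by limma), with an exact permutation p of 0.0281, and -0.27 after GC and length correction. In early mice the values were 2.03, 2.90, 3.12, 3.11 and 3.25 under SAFit2 and 2.11 to 3.44 (median 2.90) under Vehicle. The early log2 fold change was -0.02 ± 0.24 (adjusted p = 1), and 0.19 without Early SAFit2 mouse 1. The mean effect was -0.25 ± 0.17 (exact permutation p = 0.163).

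Sstr3, a receptor known from neuronal primary cilia, did not pass in any comparison. It was at 3.84, 2.25, 3.10, 3.27 and 2.46 log2 CPM in Late SAFit2 mice, the widest spread of the 4 groups (SD 0.64), and at 2.70 to 3.57 (median 3.19) in Late Vehicle mice. Of the Late SAFit2 mice, 2 lay below the Vehicle range, 1 above it and 2 within it. The late log2 fold change was -0.18 ± 0.23 (adjusted p = 0.592), and 0.29 after GC and length correction. In early mice it was 0.04 ± 0.23 (adjusted p = 1), with values of 2.93 to 3.46 (median 3.08) under SAFit2 and 2.93 to 3.43 (median 3.00) under Vehicle.

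Sstr4 was at the limit of detection. The 5 Late SAFit2 mice had 6, 9, 7, 1 and 1 reads, and the Late Vehicle mice 0 to 25 (median 8). Late SAFit2 mice 4 and 5, with 1 read each, had the shallowest libraries of the series (11352989 and 11503386 reads on genes). Late Vehicle libraries held 13862129 to 23197524. Early SAFit2 mice had 0, 6, 27, 24 and 24 reads, and Early Vehicle mice 0 to 32 (median 17). The log2 fold change was -0.26 ± 0.75 in late mice (adjusted p = 0.829, and 0.28 after GC and length correction) and 0.43 ± 0.75 in early mice (adjusted p = 1), and its direction changed with the scaling in late mice and with single mice in both. Summed over a group and scaled to its reads, Sstr4 was at 0.886 CPM (exact Poisson 95% interval 0.704 to 1.1, counting error only) in Early SAFit2, 0.736 (0.593 to 0.904) in Early Vehicle, 0.348 (0.223 to 0.517) in Late SAFit2 and 0.511 (0.385 to 0.666) in Late Vehicle mice.

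**Figure D3:**
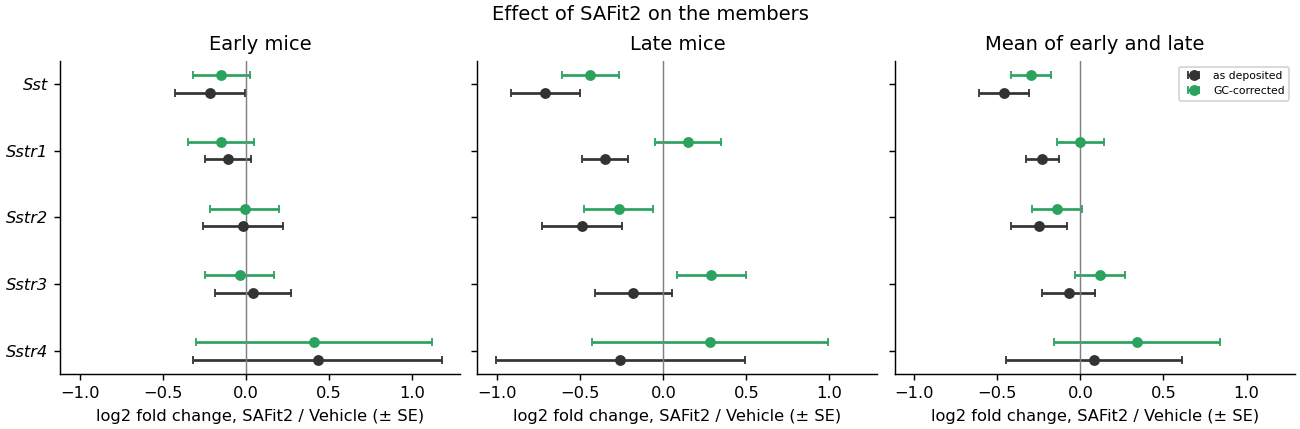
Log2 fold change of SAFit2 against Vehicle with its standard error (x axis) for each gene in early mice, late mice and as their mean, as deposited (dark) and after GC and length correction (green). In late mice Sst moves from -0.71 to -0.44 and keeps its sign, while Sstr1, Sstr3 and Sstr4 change sign.

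No gene of the 5 was called in early mice (0% of all genes were), nor for the early effect minus the late effect (0% of all genes), by limma at an adjusted p under 0.05 and a 1.2-fold change. At a nominal p under 0.05 none of the 5 passed either, where 2.48% and 24.9% of all genes did, and limma voom on the recovered reads called none. The effect differences other than that of Sst were 0.24 ± 0.20 for Sstr1, 0.47 ± 0.34 for Sstr2, 0.22 ± 0.32 for Sstr3 and 0.69 ± 1.07 for Sstr4.

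Late against Early Vehicle mice differed in time since injection and in batch, which cannot be told apart. None of the 5 genes was called (9.11% of all genes, 24.3% at a nominal p under 0.05), with log2 fold changes of 0.22 ± 0.20 for Sst, 0.15 ± 0.14 for Sstr1, 0.13 ± 0.23 for Sstr2, 0.06 ± 0.21 for Sstr3 and -0.13 ± 0.72 for Sstr4. Late against Early SAFit2 mice gave -0.27 ± 0.22, -0.09 ± 0.15, -0.34 ± 0.25, -0.16 ± 0.24 and -0.82 ± 0.79 in the same order, and none was called there (20.5% of all genes, 35.6% nominal). None of the 5 passed at a nominal p under 0.05 in either comparison, and voom called none.

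Between mice of the same group, Sst and its receptors varied together in part. With group means removed, Sst correlated with Sstr2 (Pearson r = 0.61, adjusted p = 0.0198, Spearman rho = 0.62, adjusted p = 0.0236, permutation within groups, n = 22, adjusted over 10 pairs). Within early mice r was 0.63 and within late mice 0.66, and it was 0.43 without the 2 mice farthest from the median of Sst. Sst also correlated with Sstr3 (r = 0.58, adjusted p = 0.0216, rho = 0.65, adjusted p = 0.0236, 0.64 in early and 0.61 in late mice, and 0.63 without the 2 farthest). Sstr2 correlated with Sstr4 (r = 0.75, adjusted p = 0.0088, rho = 0.57, adjusted p = 0.0443, 0.82 in early and 0.58 in late mice, and 0.58 without the 2 farthest), on few Sstr4 reads.

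These relations rest in part on single libraries. Without Early SAFit2 mouse 1, the adjusted p of all 3 rose above 0.05, and without Late SAFit2 mouse 1 that of both relations of Sst did. The highest adjusted p over the 22 fits was 0.131 for Sst with Sstr2, 0.08 for Sst with Sstr3 and 0.0649 for Sstr2 with Sstr4. After GC and length correction r was 0.57 for Sst and Sstr2 (adjusted p = 0.0577), 0.19 for Sst and Sstr3 (0.607) and 0.71 for Sstr2 and Sstr4 (0.0301). Among all genes tested, 5.46% had an r with Sst as high as Sstr2 had, and 6.93% as high as Sstr3, while 8.57% had an r with Sstr2 as high as Sst had and 1.89% an r with Sstr3 as high as Sst had. For Sstr2 and Sstr4, 1.53% of genes had an r with Sstr2, and 0.775% an r with Sstr4, as high as theirs. The other 7 pairs did not pass, among them Sst with Sstr1 (r = 0.04, adjusted p = 0.891).

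**Figure D4:**
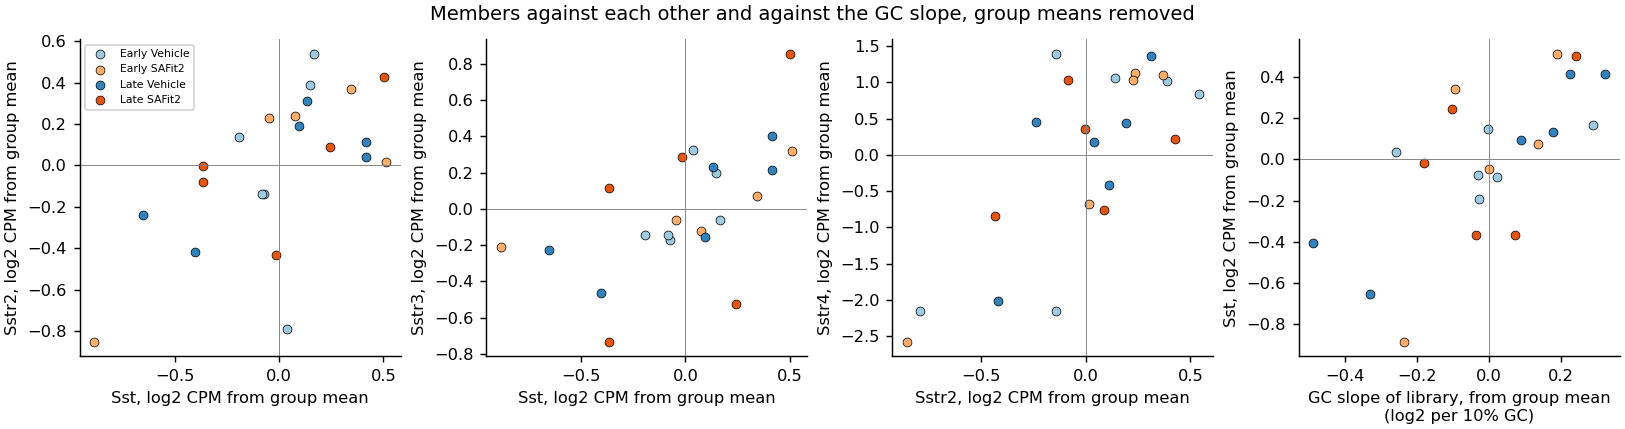
Each point is 1 mouse, coloured by group, with the group mean removed from both axes (log2 CPM, or log2 units per 10% GC for the slope). From left, Sst against Sstr2 (r = 0.61), Sst against Sstr3 (0.58), Sstr2 against Sstr4 (0.75) and the GC slope of the library against Sst (0.68).

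Sst also varied with other markers of excitatory dorsal horn neurons. Its level correlated with the mean of the dorsal excitatory list (12 genes without Sst, among them Slc17a6, the glutamate transporter of these cells) at r = 0.74 (adjusted p = 0.0114 over 20 relations, rho = 0.71, adjusted p = 0.0153), with 0.82 in early mice, 0.68 in late mice and 0.64 without the 2 mice farthest in Sst. The relation held after GC and length correction (r = 0.69, adjusted p = 0.0278) and without each mouse in turn (0.65 to 0.79). With the motor neuron list r was -0.58 (adjusted p = 0.0681, rho = -0.51, adjusted p = 0.14), which passed after GC and length correction (r = -0.65, adjusted p = 0.0296), and with the inhibitory list 0.29 (0.327, rho = 0.26, adjusted p = 0.441). The summed level of the 8 motor neuron markers ranged from 67.4 to 455 CPM over the mice, and that of the 12 excitatory markers from 483 to 859 CPM, which were 595 to 859 in Late SAFit2 and 512 to 710 in Late Vehicle mice.

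The GC slope of the library correlated with Sst (r = 0.68, adjusted p = 0.015, rho = 0.66, adjusted p = 0.0227, 0.56 in early and 0.76 in late mice, 0.59 without the 2 farthest) and with Sstr2 (r = 0.70, adjusted p = 0.0028, rho = 0.65, adjusted p = 0.0153, 0.74 in early and 0.81 in late mice, 0.66 without the 2 farthest). Without Early SAFit2 mouse 1 the adjusted p for Sst was 0.0667. After GC and length correction r with the slope was 0.52 for Sst (adjusted p = 0.0688) and 0.53 for Sstr2 (adjusted p = 0.0278, permutation within groups). The corrected values of these 2 genes are thus not shown to be free of the slope. For Sstr2 with the inhibitory list r was 0.55 (adjusted p = 0.0681, rho = 0.40, adjusted p = 0.24), and the other receptors passed with none of the 4 measures.

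The genes whose levels between mice were most like each of the 5, by Pearson r with group means removed over the 22 mice, were as follows. For Sst they were Syt5, Nrgn and Hpca (each r = 0.92), neuronal genes of vesicle release and calcium signalling, with 0.84, 0.71 and 0.49 after GC and length correction. For Sstr1 they were Nudt12 (0.82), Itgam (0.80, an integrin of microglia) and Alkbh8 (0.75), with 0.35, 0.53 and 0.12 after correction. For Sstr2 they were Pacs1 (0.89), Pde2a (0.87, a phosphodiesterase that breaks down cyclic nucleotides) and Adamtsl2 (0.86), with 0.76, 0.47 and 0.75. For Sstr3 the list was Lrwd1 (0.79), Ethe1 (0.78) and a gene without a symbol (0.78), and for Sstr4 it included Gm21075 (0.86) and Sipa1l1 (0.85). None of the 5 genes was among the 3 most like another.

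Genes that make, sort and process the ligand were called in late mice about as often as all genes, which is no result about the list. Of the 11 tested of 12 (Cort being the one not tested), 1 was called lower and none higher by limma, beside 12.1% of all genes called, and the median log2 fold change was 0.05 against -0.05 over all genes. The called gene was Pcsk1n, the inhibitor of a prohormone convertase that cuts peptide precursors, at -1.30 ± 0.34 (adjusted p = 0.0324), and it also passed the nominal threshold for the mean effect (-0.58, adjusted p = 0.345). After GC and length correction it was at -0.87 in late mice (adjusted p = 0.116). At a nominal p under 0.05, 1 was higher and 3 were lower in late mice, beside 34.5% of all genes.

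Among 26 genes of receptor signalling, 3 were called higher and 1 lower in late mice, beside 12.1% of all genes called. The median was -0.25 against -0.05 over all genes, with 7 log2 fold changes above 0 and 19 below. That lean is of the deposited values. After GC and length correction more of the 26 were above 0 than below, when the median over all genes was 0.035. At a nominal p under 0.05, 4 were higher and 11 lower in late mice, beside 34.5% of all genes. Those called higher were Gng2 (0.50 ± 0.14, adjusted p = 0.0342), Gnai3 (0.44 ± 0.13, 0.0363) and Gnai1 (0.40 ± 0.12, 0.0377), subunits of the G proteins through which these receptors act. The gene called lower was Grk2 (-0.50 ± 0.16, 0.0455), a kinase that switches off activated receptors. For the mean effect, 3 were higher and 2 lower at a nominal p under 0.05, beside 13.2% of all genes. Of these, Rgs4, a brake on inhibitory G proteins, was at 0.29 (adjusted p = 0.325), Gnai1 at 0.19 (0.350), Arrb2, an arrestin, at -0.25 (0.350), Gnai3 at 0.20 (0.353) and Gnai2, another inhibitory G protein subunit, at -0.20 (0.355). Rgs4, Arrb2 and Gnai2 are named because the count is small, after their values were seen. After GC and length correction, the averaged effect left 1 of the 26 higher and 1 lower by unadjusted p (under 0.05). In that corrected fit 1361 of 16213 genes passed likewise, so these 2 genes are no result about the list. Rgs4 was then at 0.23 (adjusted p = 0.489).

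Among the 12 genes of CREB and activity control, 2 were called higher and 1 lower in late mice (median 0.04), beside 12.1% of all genes. CREB itself, Creb1, was at 0.49 ± 0.14 (adjusted p = 0.0360), the related factor Crem at 0.64 ± 0.20 (0.0429) and the CREB coactivator Crtc1 at -0.76 ± 0.23 (0.0384). None of the 12 passed for the mean effect. In early mice no gene of the 3 lists was called or passed a nominal p under 0.05. After GC and length correction no gene of the 3 lists was called in late mice, and the log2 fold changes of Gng2, Gnai3, Gnai1, Grk2, Creb1, Crem and Crtc1 were 0.30, 0.15, 0.14, -0.06, 0.15, 0.42 and -0.31.

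The markers of cells among which these genes are expressed were called in both directions in late mice, beside 12.1% of all genes called. Of 12 excitatory markers 1 was higher and 1 lower. Of 12 inhibitory markers 1 was higher and 1 lower, and of 8 motor neuron markers none was called. Of the 8 markers of neurons in general none was called. The summed level of 6 skeletal muscle markers was 4.6 to 205 CPM (median 6.36) in Late SAFit2 and 2.38 to 6.38 CPM (median 5.18) in Late Vehicle mice, with 1 called higher. That of 6 ependymal markers was 17.1 to 43.0 CPM (median 21.9) and 29.0 to 62.3 CPM (median 46.6) in the same groups, with 1 called lower. For the mean effect, all 6 ependymal markers were lower (median -1.42) and 4 of 6 muscle markers higher (median 1.18) at a nominal p under 0.05, beside 13.2% of all genes. In early mice 4 ependymal markers were nominally lower (median of the 6 -2.17), beside 2.48% of all genes. The part of the muscle and ependymal markers in the values of Sst and its receptors was not tested.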

How the data were processed

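RNA of lumbar cord quadrants was sequenced as 75 bp read pairs from strand-specific libraries. By the study's methods and the submitters' processing notes, the authors trimmed reads with Trimmomatic, aligned them to mm10 with HISAT2 and assigned them to genes with featureCounts, then scaled the libraries by the TMM method of edgeR. The deposited values are log2 CPM with a shared floor of -3.154 for 0 reads. Reads worked back from them were whole in 100.0% of cases (tolerance 0.02). Levels per kilobase used the union of exons in GENCODE M21.

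The deposited log2 CPM were tested with limma 3.58.1 in R 4.3.3 (trended variance, 1 mean for each of 4 groups, genes at -1 or more in at least 5 libraries). A gene was called where its p, adjusted by Benjamini-Hochberg over all genes, was under 0.05 and it changed 1.2-fold, and for the averaged effect where its unadjusted p was under 0.05. Single genes were also compared by exact permutation, and relations by 100000 permutations within groups (Python 3.11.15, numpy 2.4.6). GC correction was by loess (span 0.5). Groups were taken from the labels, and from the treatment label where the titles of Early SAFit2 mice name SAFit1 instead. Mice came from a commercial supplier and, by the study's methods, treatments were balanced within cages. No cage is given for a sample in the labels, so cage could not enter a fit, and p-values measure only the spread between these mice. Scripts were tested on simulated data.

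Named genes were the 5 members, the 3 genes most like each (1 of those for Sstr4 is not reported here), and, in the lists of ligand processing, receptor signalling and CREB control, up to 4 genes a list with the lowest p that passed. The members and lists were chosen with earlier results of these data known.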

Additional observations from a re-analysis of the deposited data

Results flagged for a closer look

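Among the 20 sets of values (5 genes in 4 groups), 1 had a mouse far from the others by Dixon's criterion, where chance gives about 1 in 20. Early SAFit2 mouse 1 had an Sstr2 level of 2.03 log2 CPM (60 reads), and its gap to the next mouse was 0.715 of the group's range (critical value 0.71). The same mouse had the lowest Sst of all 22 (5.86) and 0 reads of Sstr4. Its library held 14763955 reads on genes and 13.8% on Bc1 and mitochondrial genes. Without it the early log2 fold change of Sstr2 was 0.19 and that of Sst 0.01.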

How the results depend on the processing

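The late call of Sst depended on the setting, and the cause was not tested. Beside 1 gene of 5 called in late mice (2021 of all 16765 genes), 0 of the 5 were called in the following settings. With the variance fitted without a trend the adjusted p of Sst was 0.0694 by limma, and 62 of all genes were called. With the late groups alone in the fit the adjusted p of Sst was 0.0687, and 0 of all genes were called. Under GC and length correction it was 0.192 (0 of 16213 genes called), and under that correction with the replicate block 0.117 (10 called). With library quality weights 3 were called (Sst, Sstr1 and Sstr2), as were 6381 of all 16765 genes against 2021 without weights. For the mean effect 2 genes passed nominally, 3 passed under library quality weights (Sstr2 added, and 6396 of all genes against 2215), and 1 passed under median centring, quantile normalization, the replicate block, GC correction with and without that block, reads thinned to the shallowest library, and without the 4 libraries above 20% Bc1 and mitochondrial reads. Library quality weights called 1 gene, Sst, for the early minus late effect and 1 gene, Sst, between Vehicle groups, where 0 were called otherwise. Over all genes the weights called 5082 and 5067 in these comparisons, against 0 and 1527 without them. Leaving out 1 mouse gave 0 to 1 calls among the 5 genes in late mice (1 to 4971 over all genes) and 1 to 3 for the mean effect (1313 to 3780 over all genes). The 3 relations among genes became 1 under GC correction and 0 to 3 without 1 mouse, and the 3 relations to library measures became 2 to 5.

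Directions of the receptors turned as follows, in log2 fold changes. In late mice Sstr1 was at 0.15 under GC correction and 0.27 with the block added, Sstr3 at 0.29 under both, and Sstr4 at 0.03 under quantile normalization, 0.28 under GC correction and 0.08 on thinned reads. In early mice Sstr2 was at 0.05 on thinned reads, Sstr3 at -0.04 under GC correction and -0.08 with the block, and Sstr4 at -0.0 without the libraries above 20%. For the mean effect Sstr1 was at 0.07 under GC correction with the block, Sstr3 at 0.12 and 0.1 without and with it, and Sstr4 at -0.13 under quality weights and -0.07 without the libraries above 20%. The early minus late effect was -0.29 and -0.41 for Sstr1, and -0.32 and -0.36 for Sstr3, under GC correction without and with the block. Between Vehicle groups Sstr1 was at -0.01 under quality weights and Sstr3 at -0.05 with library sizes free of Bc1 and mitochondrial reads. Between SAFit2 groups Sstr1 was at 0.04, 0.03 and 0.38 under median centring, quantile normalization and GC correction, and Sstr3 at 0.02 and 0.35 under the latter 2.

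Without 1 mouse in turn the values spanned -0.4 to 0.0 (Sstr3) and -0.67 to 0.01 (Sstr4) in late mice. In early mice they spanned -0.34 to 0.01 (Sst), -0.18 to 0.19 (Sstr2), -0.04 to 0.1 (Sstr3) and -0.0 to 1.07 (Sstr4). For the mean effect they spanned -0.18 to 0.02 (Sstr3) and -0.13 to 0.4 (Sstr4), between Vehicle groups -0.03 to 0.24 (Sstr2), -0.02 to 0.16 (Sstr3) and -0.56 to 0.28 (Sstr4), and between SAFit2 groups -0.37 to 0.03 (Sstr3).

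The residual correlations of mice with the same replicate number ran from -0.236 to 0.317, and 2 of 10 passed 0.1. With 10 such values, whether these mice were paired cannot be settled. With the replicate block Sst was at -0.79 in late mice (adjusted p = 0.00996 by limma). Over all genes the block called 4219 in late mice against 2021 without it, and 1785 against 0 for the early minus late effect. The planned count model was not run, because the deposited values are log2 CPM. The stricter filter left no value for Sstr4. The set without the libraries above 20% and the set of genes with a GC value were chosen after seeing the data. Depth limits Sstr4, with fewer than 10 reads in 13 of 22 mice.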
